A study of Rattus norvegicus with 20 samples.

Results

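Collagen genes were followed in the livers of 20 male rats, with 5 rats and 1 RNA library per rat in each of 4 groups. The genes were all rows of the deposited expression table whose gene name reads Col, a number, the letter a and a number. There were 42 such rows among 32883 genes, which is 0.128% of the table. Of these, 17 were expressed, taken here as a level of at least 0.5 TPM, a length-scaled unit of transcript abundance, after scaling between libraries, in 5 or more of the 20 libraries, and 25 were not. The rows described as the type I alpha 2 and type VI alpha 3 chains carry other names and are not among the 42.

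KYDS+BGZ_L rats were given BGZ_L powder (0.9 g/kg) together with hydrocortisone (25 mg/kg), KYDS rats the same hydrocortisone dose alone and BGZ_L rats the same powder dose alone. CON rats were given 0.5% sodium carboxymethylcellulose (CMC-Na), the vehicle. No CMC-Na is recorded for the other groups, so whether those rats also received it is unknown. Hydrocortisone is a glucocorticoid, used here to model kidney-yang deficiency syndrome (KYDS), and the series title ties the powder to Psoraleae Fructus, the fruit of Psoralea. The samples were whole liver tissue.

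Collagens are proteins of the extracellular matrix built from alpha chains that wind into a triple helix. Fibrillar collagens (types I, III and V among those measured) form the banded fibres that accumulate when a liver scars. Type IV forms the sheet of basement membranes, type VI beaded filaments, and the fibril-associated collagens (FACIT) sit on the surface of fibrils. In the liver, hepatic stellate cells and portal fibroblasts are the main sources of fibrillar collagen, whereas type XVIII, the precursor of the fragment endostatin, is also made by hepatocytes. Glucocorticoids are known to lower the synthesis of type I collagen in several tissues.

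Expression was spread unevenly over the family. Col18a1, the type XVIII chain, and Col3a1, the chain of fibrillar type III, had mean levels of 20.4 and 16.9 scaled TPM over the 20 libraries. Col18a1 alone held on average 31.0% of the summed collagen TPM of a library, the first 2 genes held 53.9%, and the 17 expressed genes held 94.9%. The 2 genes that passed the test in both hydrocortisone comparisons, Col19a1 and Col8a1, lay lower, at 3.94 and 4.93 scaled TPM. The next levels were 4.33 for Col6a2, 3.32 for Col14a1, 3.26 for Col6a1, 2.64 for Col4a1, 1.80 for Col1a1 and 1.77 for Col4a2. Col4a3 had 1.40, Col5a1 0.985, Col25a1 0.956, Col13a1 0.729, Col4a4 0.672, Col5a2 0.455 and Col27a1 0.375 scaled TPM. TPM is read here as length-scaled, which was inferred from the values, so the order between genes rests on that reading.

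**Figure D1:**
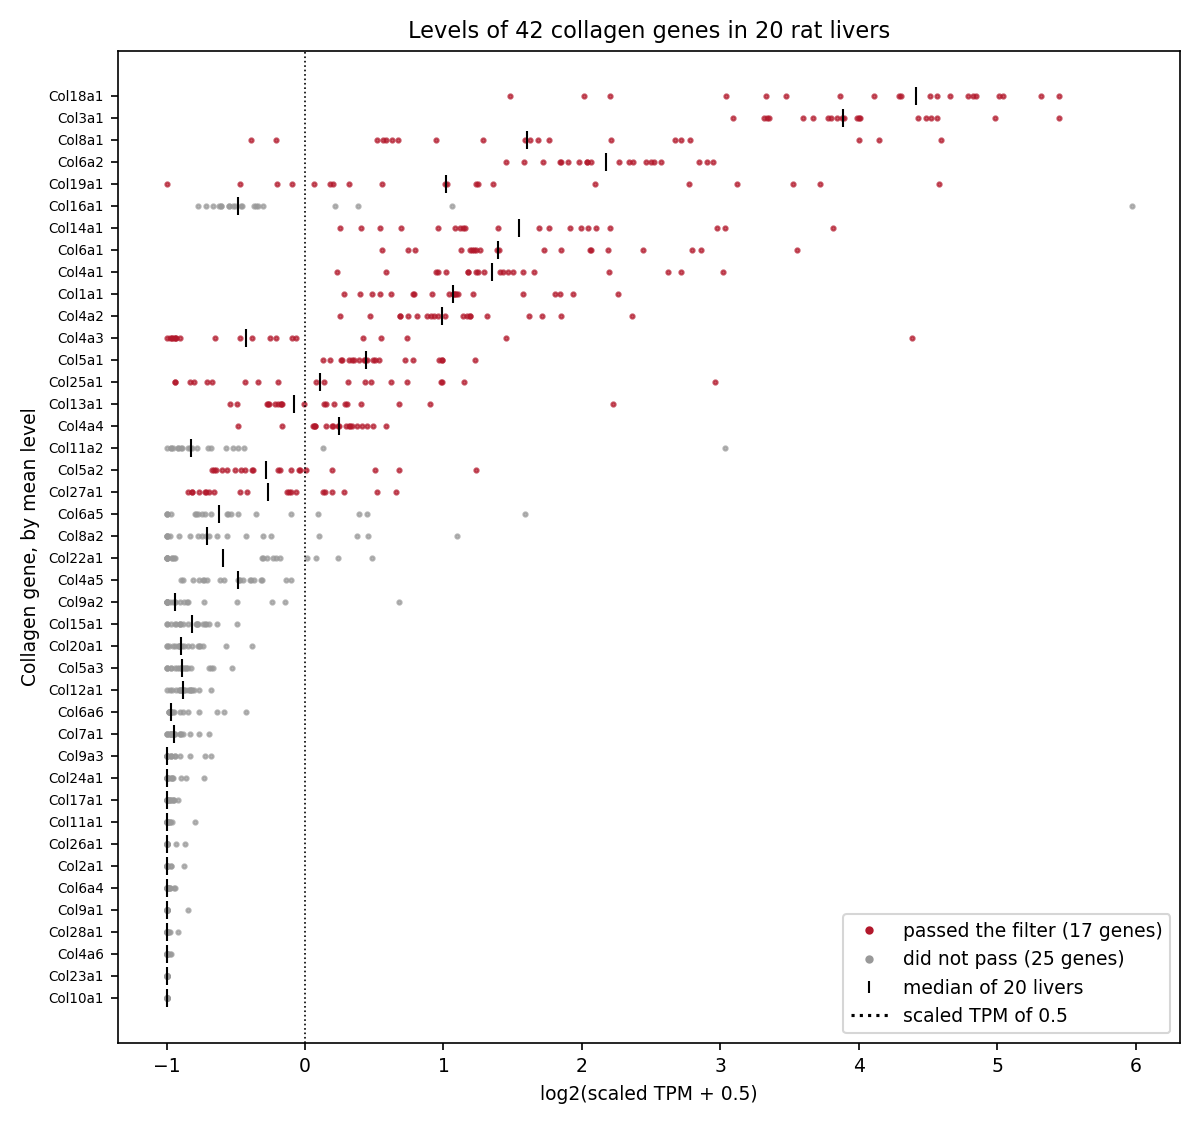
Levels of the 42 collagen genes, ordered by mean level, as log2(scaled TPM + 0.5) on the horizontal axis, with 1 point per liver and a tick at the median of the 20 livers. The 17 genes that passed the filter are red, the 25 others are grey, and Col18a1 and Col3a1 stand at the top with means of 20.4 and 16.9 scaled TPM.

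By class, 5 of 10 fibrillar genes were expressed, as were 4 of 6 basement membrane genes, 2 of 5 beaded filament genes, 2 of 4 transmembrane genes, 2 of 9 FACIT genes, 1 of 3 short chain network genes and 1 of 2 multiplexin genes. The single genes of type VII (anchoring fibrils), type XXVI and type XXVIII were not. Of the 25 genes that were not expressed, 19 reached 0.5 scaled TPM in no library and 6 reached it in 1 to 4 libraries. Those 6 were Col16a1, Col11a2, Col6a5, Col8a2, Col22a1 and Col9a2. Among the 19 were Col2a1 and Col10a1, known from cartilage, Col15a1, the other multiplexin, with a highest value of 0.212, and Col4a5 and Col4a6 of basement membranes, with highest values of 0.433 and 0.0104. Col10a1 and Col23a1 were listed at 0 in all 20 libraries. The count of 17 depends on the definition, since 12 genes reached 1 scaled TPM in at least 5 libraries, 18 were above 0 in all libraries and 40 were above 0 in at least 1.

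Stretches of promoter sequence, 3 in number, are printed because the results below turn on those genes: Col4a1 and Col4a2, whose levels moved together, and Col8a1 and Col19a1, which passed the test. They come from RefSeq (build GRCr8), where 33 of the 42 genes and 12 of the 17 expressed ones were matched by name. Capitals mark matches to any of 5 motifs searched on both strands: the GC box with the letters GGGCGG, the box named for its letters CCAAT, the TATA box spelled TATAAA, the core of glucocorticoid receptor sites spelled AGAACA, and the palindromic response element of that receptor. Col4a2 and Col4a1 lie head to head, and their annotated starts are 76 bases apart (chr16:84885521-84885596, plus strand printed, Col4a2 to the left and Col4a1 to the right).
Col4a2 to Col4a1: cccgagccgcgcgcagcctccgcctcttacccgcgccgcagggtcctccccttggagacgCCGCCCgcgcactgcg
The stretch has 78.9% G and C and 1 GC box, a motif found in 19.3% of 27457 RefSeq promoters over a window of 76 bases. The starts of Col4a4 and Col4a3, also head to head, are 412 bases apart. For Col8a1 (chr11:56246532-56246781, plus strand) and Col19a1 (chr9:34518258-34518507, minus strand) the 250 bases before the annotated start are given, 5′ to 3′.
Col8a1: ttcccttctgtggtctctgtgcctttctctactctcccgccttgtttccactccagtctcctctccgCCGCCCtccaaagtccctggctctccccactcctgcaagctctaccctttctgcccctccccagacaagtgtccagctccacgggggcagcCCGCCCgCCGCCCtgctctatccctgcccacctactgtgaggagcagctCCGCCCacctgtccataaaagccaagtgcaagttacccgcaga
Col19a1: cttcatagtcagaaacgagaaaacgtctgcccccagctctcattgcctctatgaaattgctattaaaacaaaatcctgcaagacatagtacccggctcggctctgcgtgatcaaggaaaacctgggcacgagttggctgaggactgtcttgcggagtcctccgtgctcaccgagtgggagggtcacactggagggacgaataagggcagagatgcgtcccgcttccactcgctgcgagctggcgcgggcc
The Col8a1 stretch held 4 GC boxes, which 32.4% of promoters hold at least once over 250 bases, and no other searched motif. The Col19a1 stretch held none of the 5 motifs. The core AGAACA is found in 17.1% and the palindrome in 0.364% of promoters over 250 bases, and its letters being missing from these windows says nothing of binding elsewhere.

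The libraries differed widely in composition, within and between groups. The share of TPM from 13 mitochondrially encoded genes ran from 26.6 to 70.2% in KYDS+BGZ_L, 19.2 to 68.9% in KYDS, 39.6 to 81.9% in BGZ_L and 65.6 to 90.1% in CON livers. Scaling factors between libraries ran from 0.962 to 1.79, 1.31 to 2.01, 0.345 to 1.35 and 0.231 to 1.26 in the same order. The 10 hepatocyte markers summed to 10240 to 53060 scaled TPM in KYDS+BGZ_L, 7227 to 71300 in KYDS, 5880 to 6805 in BGZ_L and 5668 to 10670 in CON livers, with none at 0 in any library. The 17 hepatic stellate cell markers summed to 119 to 160, 106 to 174, 139 to 271 and 105 to 354 in the same order, with Ngfr at 0 in 4 libraries and Rgs5 and Hand2 in 1 each. The 9 portal fibroblast markers summed to 7.06 to 18.5, 4.06 to 15.8, 2.08 to 17.3 and 5.79 to 26.0, with Thy1 at 0 in 11 libraries, Gli1 in 6, Mfap4 in 5, Msln in 4 and Cd34 in 3. In whole tissue, fewer cells of a type and less RNA per cell cannot be told apart. The part of these shares in the results below was not tested. A fit with a covariate, the log ratio of nuclear to mitochondrial TPM, is given among the alternatives. The mitochondrial share differed between the groups compared, most KYDS livers lying below all CON livers. A result that changes in that fit therefore cannot tell composition and hydrocortisone apart.

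Hydrocortisone was compared with vehicle in rats without BGZ_L (KYDS against CON) and with BGZ_L in rats that all received the powder (KYDS+BGZ_L against BGZ_L). In both, the same pair of collagens fell, Col19a1 and Col8a1, and no collagen rose under the scaling used. Each comparison therefore had 2 of 17 expressed collagens called lower and 0 higher by limma at an adjusted p under 0.05, with 15 not passing. Among all 11869 genes tested, 6.27% were called in KYDS against CON (3.25% higher and 3.02% lower) and 17.4% in KYDS+BGZ_L against BGZ_L (8.82% higher and 8.55% lower). Beside these shares, a count of 2 in a list of 17 is not read as particular to collagens. The median log2 fold change of the 17 genes was -0.20 in KYDS against CON, beside 0.05 over all genes, and -0.22 in KYDS+BGZ_L against BGZ_L, beside 0.06. At an unadjusted p under 0.05 there were 5 of 17 collagens in KYDS against CON, beside 24.1% of all genes (2856), and 4 in KYDS+BGZ_L against BGZ_L, beside 32.3% (3831), so these counts too are near the shares over all genes. Without scaling between libraries, where the median of all genes moved to 1.03 in KYDS against CON, no collagen was called lower there and 5 of 18 tested were called higher (Col18a1, Col6a2, Col5a1, Col4a4 and Col22a1), beside 48.2% of all 12168 genes tested in that fit (5867).

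**Figure D2:**
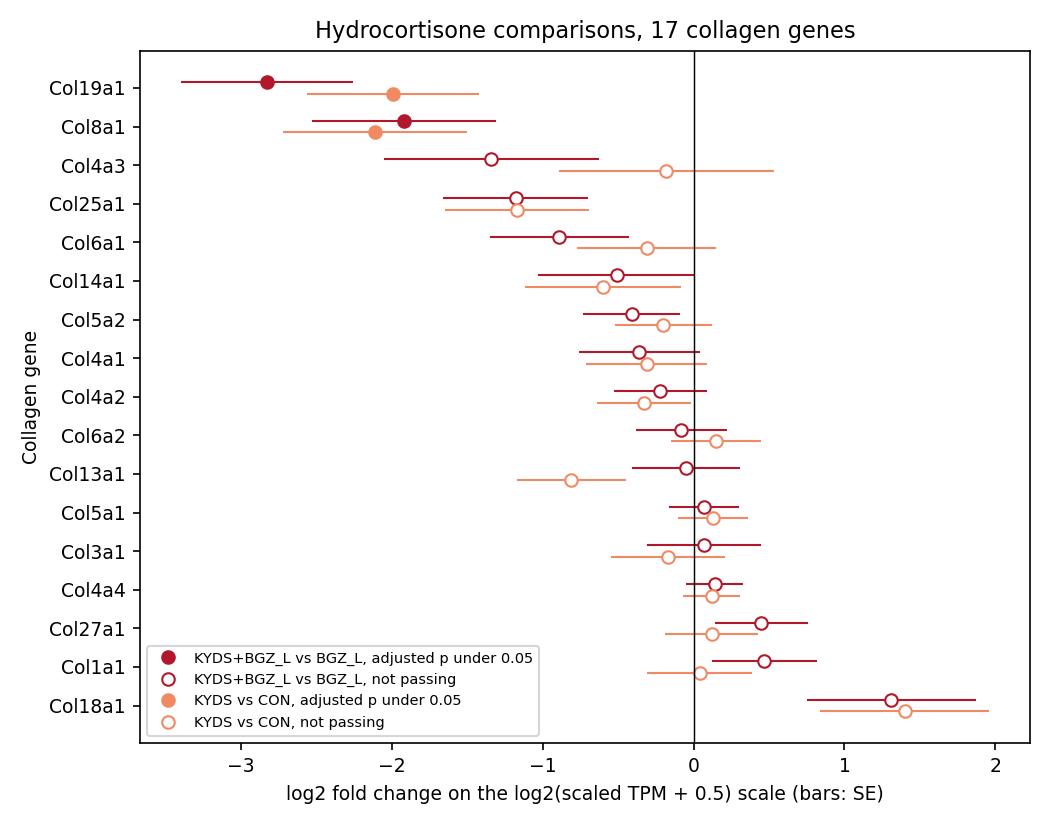
Log2 fold changes of the 17 expressed collagen genes (horizontal axis, log2(scaled TPM + 0.5) scale, bars are SE) in KYDS+BGZ_L against BGZ_L (dark red) and KYDS against CON (orange), with filled points at an adjusted p under 0.05. Col19a1 and Col8a1 are the filled points, at -2.83 and -1.92 in KYDS+BGZ_L against BGZ_L and -1.99 and -2.11 in KYDS against CON, and Col18a1 lies farthest to the right with open points at 1.31 and 1.40.

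Col19a1 encodes the type XIX chain, a FACIT collagen of basement membrane zones that in mice is needed for normal muscle of the oesophagus. It had 0.648, 0.631, 0.369, 0.748 and 0.438 scaled TPM in the KYDS rats, against 1.87, 8.21, 12.7, 1.54 and 1.85 in the CON rats. All KYDS livers lay below all CON livers, which 3.17% of all genes tested did, and within CON the libraries of rats 2 and 3 (CON 2 and CON 3) were the highest. The log2 fold change was -1.99 ± 0.57 (SE; limma adjusted p = 0.0462). In the rats given the powder, Col19a1 had 0.224, 1.52, 0.966, 0 and 0.547 scaled TPM in the KYDS+BGZ_L rats, against 2.06, 11.0, 23.4, 6.33 and 3.76 in the BGZ_L rats. Here too the groups did not overlap, as was so for 5.97% of all genes in this direction, and the fourth KYDS+BGZ_L liver was listed at 0. The log2 fold change was -2.83 ± 0.57 (adjusted p = 0.0039). This second call held in all 32 alternatives, among them each fit without 1 library and the fit with the mitochondrial covariate, with log2 fold changes of -3.71 to -2.05 and a highest adjusted p of 0.0206.

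The call of Col19a1 in KYDS against CON was less steady. With the mitochondrial covariate the log2 fold change was -0.58 (adjusted p = 0.912), and without scaling it was -1.02 (adjusted p = 0.0868). Leaving out 1 library ended the call in 12 of 20 fits, although the log2 fold change stayed between -2.24 and -1.58. Those libraries were KYDS+BGZ_L 1, 3 and 5, KYDS 1, 2, 3 and 5, BGZ_L 4 and 5, and CON 1, 2 and 3, with a highest adjusted p of 0.123 without CON 2. The 2 effects of hydrocortisone on Col19a1 differed by -0.84 ± 0.81 on the log2 scale, an interaction that did not pass (adjusted p = 0.999, interval -2.53 to 0.85).

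Col8a1 encodes a chain of the short chain collagen type VIII, known from the layer under vascular endothelium and from the cornea. It had 1.05, 2.50, 0.364, 0.999 and 1.09 scaled TPM in the KYDS rats, against 17.2, 23.7, 2.89, 2.59 and 2.71 in the CON rats. The groups did not overlap, but the margin was small: the highest KYDS liver had 2.50 and the lowest CON liver 2.59, and the first and second CON rats were far above the other CON rats. The log2 fold change was -2.11 ± 0.61 (adjusted p = 0.0467). With the powder, Col8a1 had 0.263, 4.13, 1.42, 0.931 and 0.976 scaled TPM in the KYDS+BGZ_L rats, against 6.07, 5.86, 1.94, 15.5 and 6.38 in the BGZ_L rats. The groups overlapped, since KYDS+BGZ_L 2 stood above BGZ_L 3, and the log2 fold change was -1.92 ± 0.61 (adjusted p = 0.0363). The difference of the 2 effects was 0.19 ± 0.87 (adjusted p = 0.999, interval -1.62 to 2.00).

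Both Col8a1 calls lay near the threshold and were lost in some fits without 1 library. Part of the losses in KYDS against CON came without a library of a group not compared there. In those fits the log2 fold change stayed at -2.11 to -2.10, with limma adjusted p of 0.0519 to 0.0587. In KYDS against CON the call was lost in 13 of 20 fits without 1 library, namely KYDS+BGZ_L 3, 4 and 5, each KYDS library, BGZ_L 2 and 5, and CON 1, 2 and 3, with a highest adjusted p of 0.129 without CON 2 and log2 fold changes of -2.39 to -1.68. In KYDS+BGZ_L against BGZ_L it was lost in 7 of 20, namely KYDS+BGZ_L 1, 3, 4 and 5 and BGZ_L 2, 4 and 5, with a highest adjusted p of 0.107 without KYDS+BGZ_L 1 and log2 fold changes of -2.29 to -1.59. Without scaling the log2 fold changes of Col8a1 were -1.02 (adjusted p = 0.189) and -1.35 (adjusted p = 0.135), so both calls were lost there. With the mitochondrial covariate the log2 fold changes were -1.45 (adjusted p = 0.743) and -1.56 (adjusted p = 0.181).

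**Figure D3:**
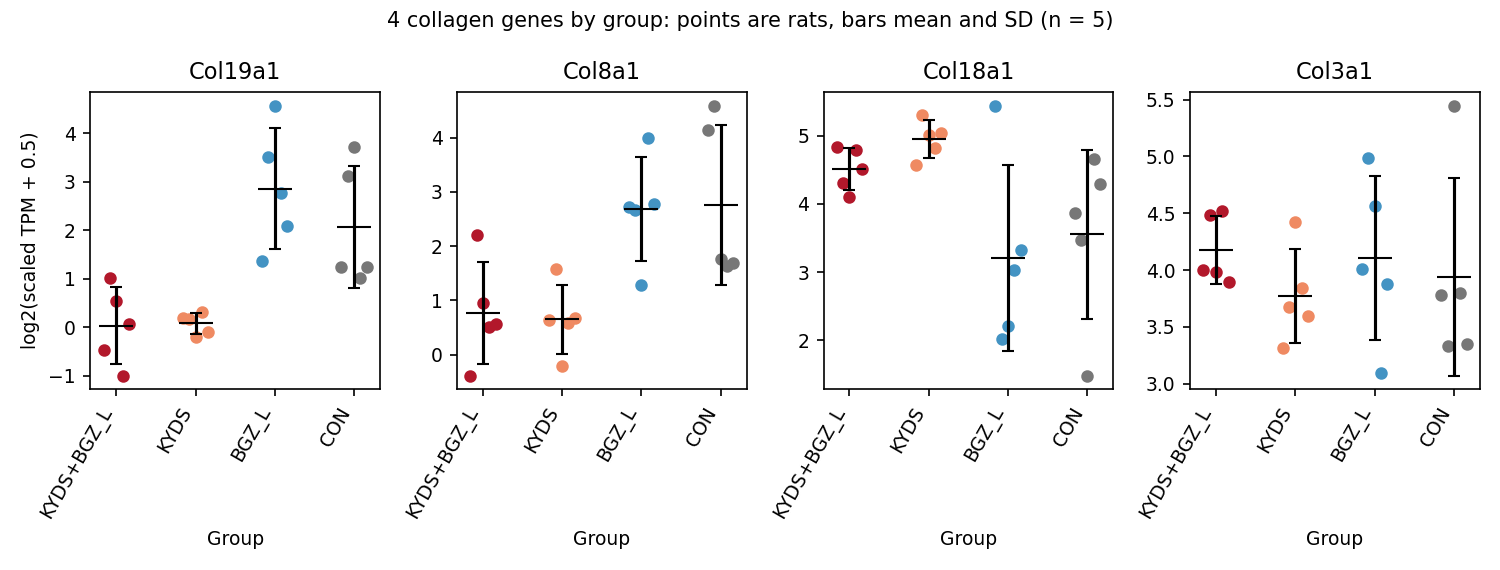
Levels of Col19a1, Col8a1, Col18a1 and Col3a1 as log2(scaled TPM + 0.5) in the KYDS+BGZ_L, KYDS, BGZ_L and CON groups, with 1 point per rat and bars for mean and SD (n = 5). The KYDS+BGZ_L and KYDS livers lie below the BGZ_L and CON livers for Col19a1, the BGZ_L and CON livers are more spread for Col18a1, and the groups overlap for Col3a1.

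Col18a1, the collagen with the highest mean over the 20 libraries, differed in the other direction without passing. Its place at the top depended on the group. In CON and BGZ_L livers it averaged 14.2 and 13.6 scaled TPM, below Col3a1 at 17.8 and 18.4. The CON medians had the reverse order, 14.1 for Col18a1 and 13.2 for Col3a1. Col18a1 had 23.2, 39.3, 31.8, 27.9 and 32.5 scaled TPM in the KYDS rats, against 14.1, 10.6, 2.29, 24.8 and 19.1 in the CON rats. The groups overlapped in 1 rat, the fourth CON liver, which stood above the lowest KYDS liver. The log2 fold change was 1.40 ± 0.56 (adjusted p = 0.130, interval 0.24 to 2.56). With the powder, Col18a1 had 28.2, 19.3, 16.8, 27.2 and 22.3 scaled TPM in the KYDS+BGZ_L rats, against 43.1, 3.54, 4.11, 7.71 and 9.57 in the BGZ_L rats. The first BGZ_L liver, at 43.1, was above every KYDS+BGZ_L liver and the other 4 BGZ_L livers were below all of them. The log2 fold change was 1.31 ± 0.56 (adjusted p = 0.110), and 1.87 (adjusted p = 0.00946) without BGZ_L 1. Without scaling, Col18a1 passed in both comparisons at log2 fold changes of 2.69 (adjusted p = 0.00479) and 2.08 (adjusted p = 0.0346), where the median of all genes stood at 1.03 and 0.63. With the mitochondrial covariate the log2 fold changes of Col18a1 were 0.36 (adjusted p = 0.959) and 0.73 (adjusted p = 0.485), and without CON 3, its lowest library, that in KYDS against CON was 0.88 (adjusted p = 0.301). The hepatocyte marker sums above were higher in the same 2 groups as Col18a1, and their part in it was not tested.

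The fibrillar genes did not pass in either comparison. Col3a1 had 9.47, 12.2, 21.0, 13.9 and 11.6 scaled TPM in the KYDS rats, against 13.2, 9.59, 43.2, 13.4 and 9.68 in the CON rats. The KYDS values lay inside the CON range except 1, and CON 3 stood far above the other CON livers. In the powder pair, Col3a1 had 15.5, 21.9, 15.3, 22.4 and 14.4 scaled TPM in the KYDS+BGZ_L rats, against 15.6, 31.1, 23.2, 8.01 and 14.2 in the BGZ_L rats. The KYDS+BGZ_L livers all lay within the BGZ_L range. The log2 fold changes were -0.17 (interval -0.96 to 0.62) and 0.07 (interval -0.72 to 0.86).

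Col1a1, the alpha 1 chain of type I, the most abundant collagen of scar tissue, had 4.30, 1.56, 1.22, 0.717 and 1.60 scaled TPM in the KYDS rats, against 3.33, 1.04, 0.897, 3.001 and 0.818 in the CON rats. The highest of all 20 was the first KYDS liver, and the groups overlapped. In the other pair, Col1a1 had 1.82, 1.60, 3.08, 2.48 and 1.62 scaled TPM in the KYDS+BGZ_L rats, against 1.63, 1.65, 0.956, 1.22 and 1.39 in the BGZ_L rats. These groups overlapped too, and the log2 fold changes of 0.04 (interval -0.69 to 0.77) and 0.47 (interval -0.26 to 1.20) did not pass. The ratio of Col3a1 to Col1a1 in a library ran from 2.20 in KYDS 1 to 48.1 in CON 3, with a median of 9.14.

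The type I alpha 2 chain, which pairs with Col1a1 in the type I molecule, is held in the table by 2 rows of the same provisional name, NEWGENE_621351, whose values differ. The first row had 3.87, 0.706, 0.0170, 0.687 and 1.503 scaled TPM in KYDS livers, against 1.66, 1.56, 1.85, 2.48 and 0.254 in CON livers. The second had 0.0289, 1.70, 2.77, 0.595 and 0.776 in KYDS livers, against 1.53, 0.907, 4.09, 0 and 1.78 in CON livers. Libraries low in the first row, such as KYDS 3, were often high in the second, and CON 4 was at 0 in the second. The sum of both rows ran from 1.28 in KYDS 4 to 5.95 in CON 3. The sum was above 0 in every library, each row was at 0 in 1, and each row taken alone is uncertain. The type VI alpha 3 row had 1.07, 2.20, 1.79, 1.503 and 2.05 in KYDS livers, against 1.62, 0.302, 1.36, 2.81 and 0.273 in CON livers, and these groups overlapped.

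Type V chains start and size the type I fibrils. Col5a1 had 0.920, 1.22, 0.949, 1.46 and 0.749 scaled TPM in the KYDS rats, against 0.698, 0.778, 1.84, 0.847 and 0.636 in the CON rats. It had 0.765, 1.49, 1.15, 0.861 and 0.703 scaled TPM in the KYDS+BGZ_L rats, against 1.49, 0.905, 0.811, 0.595 and 0.844 in the BGZ_L rats. The groups overlapped in both pairs, and Col5a1 had the narrowest spread of the 17 genes, with a highest value 3.09 times the lowest. Col5a2, its partner, had 0.469, 0.507, 0.176, 0.473 and 0.161 scaled TPM in the KYDS rats, against 0.203, 0.432, 1.85, 0.372 and 0.127 in the CON rats. In the powder pair it had 0.134, 0.647, 0.270, 0.141 and 0.242 scaled TPM in the KYDS+BGZ_L rats, against 0.227, 0.917, 1.10, 0.268 and 0.383 in the BGZ_L rats. CON 3 was the highest library for both genes. Neither passed, with log2 fold changes of 0.13 (interval -0.35 to 0.61) and 0.07 (interval -0.41 to 0.55) for Col5a1. Col27a1, a fibrillar collagen known from cartilage, was between 0.0579 and 1.07 scaled TPM.

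Of the basement membrane genes, Col4a1 and Col4a2 encode the chains found in almost all basement membranes. Col4a1 had 1.00, 1.53, 2.26, 1.76 and 1.43 scaled TPM in the KYDS rats, against 1.87, 1.95, 7.59, 1.44 and 0.672 in the CON rats. In the powder pair it had 2.65, 4.08, 2.15, 2.19 and 1.76 scaled TPM in the KYDS+BGZ_L rats, against 2.48, 6.08, 5.65, 2.33 and 1.86 in the BGZ_L rats. CON 3, BGZ_L 2 and BGZ_L 3 were the highest, and the groups overlapped. Col4a2 had 0.885, 1.17, 1.70, 1.41 and 1.11 scaled TPM in the KYDS rats, against 1.75, 1.34, 4.64, 1.45 and 0.690 in the CON rats. It had 1.79, 2.57, 1.38, 1.78 and 1.11 scaled TPM in the KYDS+BGZ_L rats, against 1.98, 3.11, 2.78, 1.25 and 1.52 in the BGZ_L rats. The same 3 livers were the highest. The log2 fold changes were -0.31 (interval -1.15 to 0.53) and -0.36 (interval -1.20 to 0.48) for Col4a1 and -0.33 (interval -0.98 to 0.32) and -0.22 (interval -0.87 to 0.43) for Col4a2, none passing.

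Across the 20 libraries, with each group's mean removed, Col4a1 and Col4a2 followed each other closely. Pearson's r was 0.962 and Spearman's rho 0.919, each with a permutation p of 1e-05, the smallest that 100000 resamples can give (adjusted over 8 gene pairs, 8e-05). Without CON 3 and CON 5, the libraries farthest out, r was 0.910. The ratio of Col4a1 to Col4a2 stayed between 0.974 and 2.03, with a median of 1.31. Col4a3 and Col4a4, which encode the chains of the specialised network of the kidney filter and are also head to head, had an r of -0.230 (permutation p = 0.54, adjusted p = 0.64). Col4a3 ran from 0 in BGZ_L 5 to 20.4 in BGZ_L 3, while Col4a4 stayed between 0.216 and 1.00. Col4a3 reached 0.5 scaled TPM in only 5 of the 20 libraries, so the r of this pair says little about whether the 2 genes vary together. Both genes of a pair share the scaling factor of each library. The 8 pairs were chosen after values had been seen, which the adjustment does not cover, and other gene pairs were not computed for comparison.

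**Figure D4:**
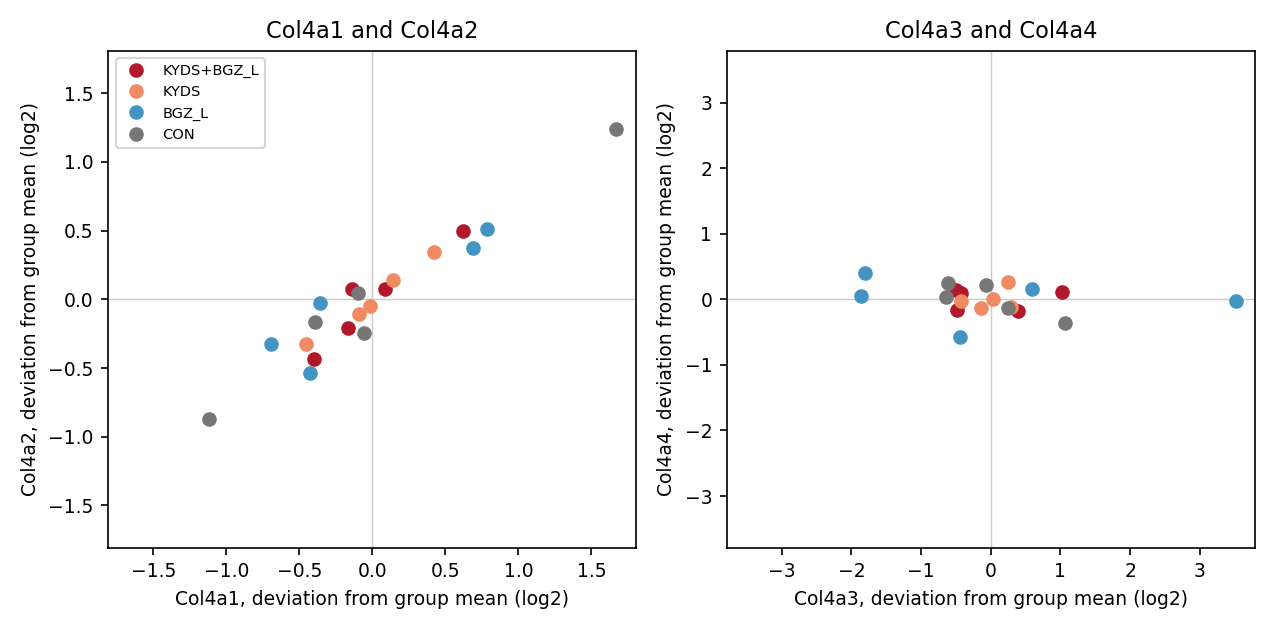
Deviation of each library from its group mean, as log2(scaled TPM + 0.5), for Col4a2 against Col4a1 (left) and Col4a4 against Col4a3 (right), with 1 point per library coloured by group. The points of Col4a1 and Col4a2 fall along a line (r = 0.962) and those of Col4a3 and Col4a4 do not (r = -0.230).

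The chains of type VI filaments, Col6a1 and Col6a2, are made by fibroblasts and stellate cells. Col6a1 had 1.68, 3.67, 1.17, 3.69 and 1.81 scaled TPM in the KYDS rats, against 2.11, 2.81, 11.2, 1.90 and 1.24 in the CON rats. In the powder pair it had 1.79, 4.92, 1.83, 1.85 and 0.969 scaled TPM in the KYDS+BGZ_L rats, against 4.07, 6.44, 6.75, 2.14 and 3.11 in the BGZ_L rats. CON 3, BGZ_L 2 and BGZ_L 3 were again the highest, and the groups overlapped. Col6a2 had 3.59, 5.45, 2.49, 6.69 and 4.67 scaled TPM in the KYDS rats, against 3.22, 3.11, 5.17, 7.21 and 2.23 in the CON rats. It had 3.69, 5.23, 4.32, 3.44 and 3.59 scaled TPM in the KYDS+BGZ_L rats, against 6.996, 4.56, 5.01, 3.08 and 2.79 in the BGZ_L rats. For this chain the highest liver was the fourth CON rat. The log2 fold changes of Col6a1 were -0.31 (interval -1.26 to 0.65) and -0.89 (interval -1.84 to 0.06), and those of Col6a2 were 0.15 (interval -0.47 to 0.77) and -0.08 (interval -0.70 to 0.54), none passing. The 2 genes had an r of 0.578 (permutation p = 0.019, adjusted p = 0.051) and a rho of 0.635 (permutation p = 0.0093, adjusted p = 0.025), and r was 0.569 without CON 3 and KYDS+BGZ_L 2.

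Col14a1, a FACIT collagen on the surface of type I fibrils, had 0.822, 1.68, 3.79, 0.954 and 1.11 scaled TPM in the KYDS rats, against 1.45, 2.72, 13.5, 1.73 and 0.690 in the CON rats. In the powder pair, Col14a1 had 3.63, 3.49, 1.70, 3.27 and 2.12 scaled TPM in the KYDS+BGZ_L rats, against 2.89, 7.67, 7.36, 1.62 and 4.11 in the BGZ_L rats. CON 3, BGZ_L 2 and BGZ_L 3 were the highest, and the log2 fold changes of -0.60 (interval -1.69 to 0.49) and -0.51 (interval -1.60 to 0.58) did not pass. Col14a1 followed Col3a1 across libraries with the group means removed (r = 0.887, permutation p = 0.00022, adjusted p = 0.00088; rho = 0.716, permutation p = 0.0021, adjusted p = 0.0084), and r was 0.782 without CON 3 and BGZ_L 2. Col1a1 did not follow Col3a1 (r = -0.203, permutation p = 0.56, adjusted p = 0.64). Col5a1 and Col5a2 had an r of 0.626 (permutation p = 0.026, adjusted p = 0.052) and a rho of 0.568 (permutation p = 0.018, adjusted p = 0.036). Col3a1 and Col18a1 had an r of -0.543 (permutation p = 0.08, adjusted p = 0.13), which was -0.104 without CON 3 and BGZ_L 2. Their rho was -0.238 (permutation p = 0.38, adjusted p = 0.51). Col8a1 and Col19a1 had an r of 0.0753 (permutation p = 0.80, adjusted p = 0.80).

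Both expressed transmembrane collagens had lower log2 means with hydrocortisone alone, without passing. Col25a1, a neuronal collagen first found in amyloid plaques, had 0.127, 0.0746, 0.0227, 1.17 and 0.111 scaled TPM in the KYDS rats, against 0.848, 1.04, 7.28, 0.372 and 0.291 in the CON rats. The fourth KYDS liver lay inside the CON range. In the powder pair, Col25a1 had 0.0615, 0.558, 0.239, 0.0212 and 0.601 scaled TPM in the KYDS+BGZ_L rats, against 0.743, 1.72, 1.48, 1.49 and 0.889 in the BGZ_L rats. These groups did not overlap, and the log2 fold changes were -1.17 ± 0.48 (adjusted p = 0.141) and -1.18 ± 0.48 (adjusted p = 0.0938). Without CON 3, the highest library, the second passed at -1.19 (adjusted p = 0.0158), whereas the first was -0.61 (adjusted p = 0.309). With the mitochondrial covariate the log2 fold changes of Col25a1 were -0.30 (adjusted p = 0.961) and -0.70 (adjusted p = 0.435). Col13a1, known from neuromuscular junctions, had KYDS levels of 0.211 to 0.393, against 0.327 to 4.18 scaled TPM in CON livers, with a log2 fold change of -0.81 ± 0.36 (adjusted p = 0.175). Its KYDS+BGZ_L levels were 0.332 to 1.37, against 0.186 to 1.10 in BGZ_L livers, with a log2 fold change of -0.05 (adjusted p = 0.934).

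Much of the spread within groups came from single livers. CON 3 held the highest value of all 20 libraries for 9 of the 17 expressed genes and the highest of the 5 CON livers for 10. Its summed collagen level was 121.7 scaled TPM, against 42.6 to 74.9 in the other CON livers, and its stellate cell marker sum of 353.5 was the highest of all. BGZ_L 2 and BGZ_L 3 had the next highest stellate sums, 271.3 and 255.2. The portal fibroblast marker sums went the other way, at 5.79 in CON 3, 2.08 in BGZ_L 2 and 3.56 in BGZ_L 3. Those of CON 3 and BGZ_L 2 were the lowest of their groups, and the part of either cell type was not tested. CON 3 was at the same time the lowest library for Col18a1. The summed collagen level averaged 63.9 ± 10.6 in KYDS+BGZ_L, 65.5 ± 8.60 in KYDS, 93.8 ± 47.1 in BGZ_L and 74.0 ± 29.2 scaled TPM in CON livers (SD, n = 5 each), so the BGZ_L and CON livers were the more spread. Of the BGZ_L sum, 62.2 scaled TPM in BGZ_L 3 came from Col16a1 alone, a FACIT gene that was below 0.3 in the other BGZ_L livers.

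**Figure D5:**
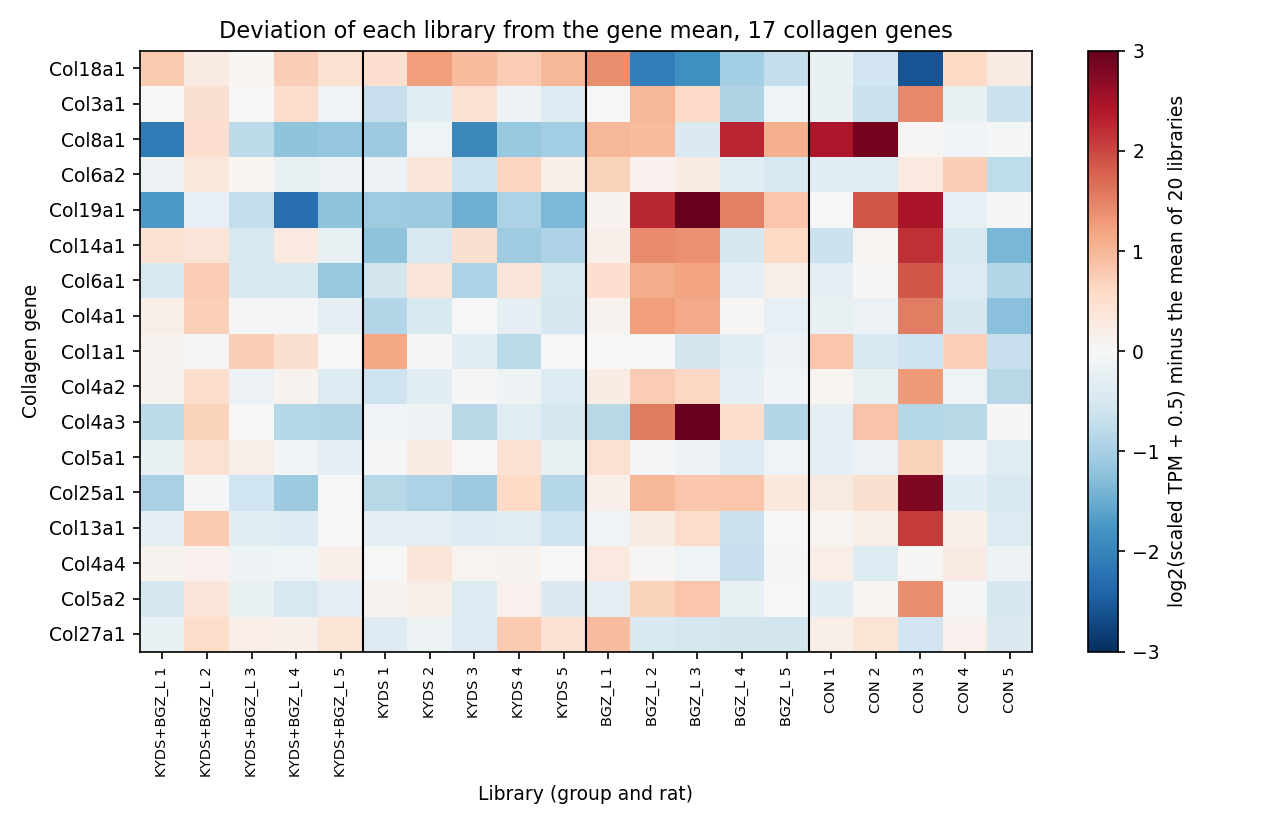
Deviation of each library from the mean of 20 libraries, as log2(scaled TPM + 0.5), for the 17 expressed collagen genes (rows, by mean level) in the KYDS+BGZ_L, KYDS, BGZ_L and CON libraries (columns), with colours held at the ends of the scale beyond 3. CON 3 is red in most rows and blue for Col18a1, and Col19a1 is blue across the KYDS+BGZ_L and KYDS libraries.

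The effect of the powder was compared in rats that all received hydrocortisone (KYDS+BGZ_L against KYDS) and in rats without it (BGZ_L against CON). No collagen passed in either. In KYDS+BGZ_L against KYDS, limma called 0 of 17 collagens and 0.126% of all genes, and 0 collagens and 405 genes had an unadjusted p under 0.05. The largest difference was that of Col14a1, with 2.84 ± 0.870 scaled TPM in KYDS+BGZ_L livers and 1.67 ± 1.23 in KYDS livers (SD, n = 5 each). Col3a1 averaged 17.9 ± 3.92 in KYDS+BGZ_L livers and 13.6 ± 4.39 in KYDS livers (log2 fold change 0.40, interval -0.39 to 1.20), and Col18a1 22.8 ± 4.95 and 30.9 ± 5.94 in the same order (log2 fold change -0.44, interval -1.60 to 0.72). Col19a1 had medians of 0.547 and 0.631 in the same order. The medians of the log2 fold changes were 0.08 over the 17 collagens and -0.02 over all genes.

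In BGZ_L against CON, limma called 0 of 17 collagens and 0% of all genes, while 0 collagens and 715 genes had an unadjusted p under 0.05. Col3a1 averaged 18.4 ± 8.92 scaled TPM in BGZ_L livers and 17.8 ± 14.3 in CON livers (log2 fold change 0.16, interval -0.63 to 0.96), and Col18a1 13.6 ± 16.7 and 14.2 ± 8.51 in the same order (log2 fold change -0.35, interval -1.51 to 0.82). The largest difference was that of Col4a3, with 20.4 in BGZ_L 3 and at most 2.23 in the other BGZ_L livers. The medians were 0.09 over the collagens and -0.01 over all genes. The interaction of powder and hydrocortisone called 0 of 17 collagens and 0.0253% of all genes, and 0 collagens and 447 genes had an unadjusted p under 0.05.

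Genes that make, cut and bind collagen were counted in lists, each to be read beside the 3.25% higher and 3.02% lower of all genes in KYDS against CON and the 8.82% higher and 8.55% lower in KYDS+BGZ_L against BGZ_L. With lists of 2 to 17 tested genes, no count is called particular to its list. Of 23 genes of collagen synthesis and folding, 17 were tested, and in KYDS+BGZ_L against BGZ_L 4 were higher and 1 lower. Those higher were P4hb, Ppib, P3h1 and Pdia3, which modify and fold chains in the endoplasmic reticulum, at log2 fold changes of 1.15 to 1.63 (adjusted p of 0.0181 to 0.0493). P4hb passed in 10 of 32 alternatives, Ppib in 20, and P3h1 and Pdia3 in 27 each. The 1 lower was P3h2, the prolyl 3-hydroxylase that acts on type IV collagen. P3h2 averaged 1.37 ± 1.55 scaled TPM in KYDS+BGZ_L livers and 16.1 ± 11.3 in BGZ_L livers, a log2 fold change of -3.22 ± 0.58 (adjusted p = 0.00236) that passed in all 32 alternatives. In KYDS against CON only the chaperone Hspa5 of that list passed, higher at 1.21 ± 0.36 (adjusted p = 0.0492), and it was called in 9 of 32 alternatives. P3h2 had -1.61 ± 0.58 there (adjusted p = 0.0982).

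Of 16 genes of procollagen processing and fibril assembly, 7 were tested, and 1 was higher and 1 lower in each hydrocortisone comparison. Bmp1, which removes the C-terminal propeptide of fibrillar collagens, was higher at 1.78 ± 0.50 in KYDS against CON (adjusted p = 0.0419) and 1.55 ± 0.50 in KYDS+BGZ_L against BGZ_L (adjusted p = 0.0377), and passed in 17 and 19 of 32 alternatives. Adamts14, which removes the N-terminal propeptide, was lower at -3.44 ± 0.93 (adjusted p = 0.0368) and -3.53 ± 0.93 (adjusted p = 0.0145), and passed in 21 and 31 of 32. Of 6 cross-linking genes, 2 were tested (Tgm2 and Loxl1) and 0 passed by limma, the lowest adjusted p being 0.214 and 0.145, both for Tgm2.

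Of 17 genes of collagen degradation and its inhibitors, 10 were tested. In KYDS against CON 0 passed, the lowest adjusted p being 0.0938 for Ctsb. In KYDS+BGZ_L against BGZ_L 4 were higher and 0 lower: the membrane-bound collagenase Mmp14 at 1.35 ± 0.29 (adjusted p = 0.00552), Mmp19 at 0.79, and the lysosomal proteases Ctsl at 1.41 and Ctsb at 1.23. Mmp19 passed in 24 of 32 alternatives, Ctsl in 22 and Ctsb in 20. Mmp14 averaged 1.77 ± 1.19 scaled TPM in KYDS+BGZ_L livers and 0.347 ± 0.239 in BGZ_L livers and passed in all 32 alternatives. Of 10 collagen receptors, 2 were tested and Itga1, the alpha subunit of a collagen-binding integrin, was lower at -1.95 ± 0.58 in KYDS against CON (adjusted p = 0.0497, in 9 of 32 alternatives) and -2.63 ± 0.58 in KYDS+BGZ_L against BGZ_L (adjusted p = 0.00605, in 31 of 32).

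Among 25 other matrix proteins, 15 were tested. Fn1, fibronectin, which hepatocytes also make, was higher at 2.28 ± 0.51 in KYDS against CON (adjusted p = 0.0168) and 2.74 ± 0.51 in KYDS+BGZ_L against BGZ_L (adjusted p = 0.00253). Vtn, the plasma protein vitronectin, was higher in the second at 1.29 (adjusted p = 0.025, in 26 of 32 alternatives). Of 16 TGF-beta signalling genes, 13 were tested, and Smad4, the shared partner of the receptor-activated SMADs, was lower at -1.5 ± 0.44 in KYDS against CON (adjusted p = 0.0467) and -1.52 ± 0.44 in KYDS+BGZ_L against BGZ_L (adjusted p = 0.0223). It passed in 13 of 32 alternatives in the first, with log2 fold changes of -1.67 to -0.22, and in 25 of 32 in the second. The ligand Tgfb3 was lower in the second at -0.85 (adjusted p = 0.0336, in 21 of 32 alternatives). Of 15 stellate cell markers tested, Pdgfrb, a growth factor receptor, was higher at 1.98 ± 0.33 (adjusted p = 0.0023) and 2.20 ± 0.33 (adjusted p = 0.000575), and Vim was lower in the first at -0.96 (adjusted p = 0.0435), in 14 of 32 alternatives and at 0.35 without scaling. The median log2 fold change of the stellate list was -0.47 and -0.51, beside 0.05 and 0.06 over all genes.

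Of 10 hepatocyte markers, 3 were higher in KYDS against CON (Ttr, Tf and Apob), with a median of 1.27. In KYDS+BGZ_L against BGZ_L 6 were higher and 1 lower, with a median of 1.67. The lower marker was Tat, called in 22 of 32 alternatives. Of the 9 Kupffer cell markers, Cd163 was higher in both. Portal fibroblast (5 tested) and endothelial markers (10 tested) had 0 called in either. With the mitochondrial covariate, where 23 of all 11869 genes passed in KYDS against CON, none of the 12 listed genes called there did. Their log2 fold changes in that fit were 1.74 for Bmp1, 1.65 for Pdgfrb, 1.24 for Cd163, 1.05 for Ttr, 1.03 for Tf, 0.96 for Fn1, 0.35 for Apob and 0.29 for Hspa5, and -1.55 for Adamts14, -0.94 for Vim, -0.61 for Smad4 and -0.35 for Itga1. Those of Bmp1 and Vim were close to the values without the covariate, and those of Hspa5, Apob and Itga1 were much smaller. In KYDS+BGZ_L against BGZ_L, Mmp14, Fn1, Pdgfrb, Alb and Apoc3 passed with it as higher, and P3h2, Itga1 and Tat as lower. Col19a1 passed as well, among 669 of all genes.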

How the data were processed

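RNA of 20 rat livers was sequenced with paired ends and only the R1 reads were used, per the labels. The file the authors deposited is titled as raw counts, but its values are not whole numbers, and they were read as TPM, inferred from its 2 decimals and its sums of 914343 to 983962 per library. No aligner or counting tool is named in the sources used here, and the submitters' processing notes name mouse genome builds whereas the gene identifiers are of rat, so the build of the values is unknown. TPM keeps no read totals: depth is unknown and no counting interval was computed.

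From these values, libraries were scaled by a trimmed mean of log ratios (30% trimmed from each end by ratio, 5% by level). The filter kept 11869 genes that reached 0.5 scaled TPM in 5 libraries or more, tested as log2(scaled TPM + 0.5), in 1 limma model of 4 group means with a trended, robust prior and 16 residual degrees of freedom. P-values were two-sided and Benjamini-Hochberg adjusted over all genes tested, with a threshold of 0.05, and intervals are 95% limma intervals. Fold changes on this scale understate those of low genes. Pairs of genes were compared over 20 libraries with group means removed, by permutation. The test and the scaling were also run on simulated data, in the test drawn independently with the same spread in every group. The groups here differ in spread, so that run does not speak to these data. Promoters were read from RefSeq. Tools were R 4.3.3, limma 3.58.1, data.table (version 1.17.8), Python 3.11.15 and matplotlib 3.10.9.

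The collagen genes, the gene lists and the alternatives were chosen with earlier results of these data known, and the 8 gene pairs were chosen after values had been seen. Every collagen called in a comparison, the expressed fibrillar, type IV, type VI and type XVIII genes and Col14a1 are given with values per library, except Col4a3, Col4a4 and Col27a1, given as ranges. Col25a1 is given per library because its groups did not overlap. Of each other list the genes named are those that passed or had the smallest p. Alternatives were other scalings, pseudocounts, filters and priors, fits of the compared groups only, fits without 1 library or without CON 2 and BGZ_L 3, a replicate block and a covariate of nuclear to mitochondrial TPM. Nothing in the labels says whether rats shared litters or batches.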

Additional observations from a re-analysis of the deposited data

Results flagged for a closer look

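A set was a collagen gene in a group of 5 livers whose highest liver reached 0.5 scaled TPM. Of 81 sets, 12 held a liver whose gap to the others exceeded the critical value of Dixon's test at its 95% level. All 12 were high values. Because a set entered through its highest liver, a gene low in the other livers entered only where 1 liver stood high. The usual rate of about 1 in 20 sets by chance therefore does not apply, and flags on high values were favoured.

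In CON 3, Col3a1 was 43.2 scaled TPM (other CON livers 9.59 to 13.4), Col5a1 was 1.84 (0.636 to 0.847) and Col13a1 was 4.18 (0.327 to 0.735). That liver also had the highest stellate cell marker sum, 353.5, and the lowest portal fibroblast marker sum of the CON livers, 5.79. The part of these cells in the values was not tested.

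The largest gap was that of Col16a1 in BGZ_L 3, at 62.2 scaled TPM, with 0.151 to 0.289 in the other BGZ_L livers. Col16a1 was also apart in KYDS+BGZ_L 2, at 0.804. Col11a2, a fibrillar collagen of cartilage, was 7.67 in BGZ_L 2 (others 0.0290 to 0.124) and 0.592 in KYDS+BGZ_L 1 (others 0.0104 to 0.0686). Col27a1 was 1.07 in BGZ_L 1 (others 0.0669 to 0.104). Col25a1 was 1.17 in KYDS 4 (others 0.0227 to 0.127).

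Of genes that did not count as expressed, Col6a5 was 0.862 in KYDS 1, Col9a2 was 1.10 in KYDS 5 and Col8a2 was 0.872 in KYDS+BGZ_L 2.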

How the results depend on the processing

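The 2 collagen calls in KYDS against CON became 5 without scaling, all higher, and 0 with nuclear genes only, a pseudocount of 1, no filter, the covariate, only the 2 groups compared, or without CON 2 and BGZ_L 3 together. The calls over all genes moved as well: 744 became 5933 without scaling, 92 with nuclear genes only, 730 with a pseudocount of 1, 367 with no filter, 23 with the covariate, 181 with only the 2 groups and 256 without CON 2 and BGZ_L 3. Col19a1 and Col8a1 had log2 fold changes of -2.31 and -2.30 with nuclear genes only and -1.99 and -2.11 with no filter. Without 1 library the collagen calls in KYDS against CON were 0 to 2. The 2 calls in KYDS+BGZ_L against BGZ_L became 1 with nuclear genes only, no filter or the covariate, Col19a1 each time, and 1 to 3 without 1 library, and without scaling the 2 were Col19a1 (lower) and Col18a1 (higher) in place of Col8a1. Over all genes 2062 calls became 577 with nuclear genes only, 1626 with no filter and 669 with the covariate. The other comparisons kept 0 in every alternative. The number expressed was 40 if any value above 0 counted, and 12 to 23 otherwise. With no scaling the median over all genes was 1.03 in KYDS against CON, 0.63 in KYDS+BGZ_L against BGZ_L and -0.36 in KYDS+BGZ_L against KYDS.

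Log2 fold changes that turned sign were, apart from Vim, of collagens in comparisons where they had not passed. Sign changes were followed for only part of the collagens and comparisons, and not for Col5a2, Col27a1, Col4a3 and Col4a4. In KYDS against CON without scaling, Col6a1 was 0.77, Col3a1 1.12, Col4a1 0.68, Col4a2 0.59, Col14a1 0.41 and Vim 0.35. With the covariate, Col6a1 was 0.44, Col4a1 0.02 and Col1a1 -0.34, and Col1a1 was -0.01 with median-ratio scaling and -0.08 without CON 2 and BGZ_L 3. In KYDS+BGZ_L against BGZ_L without scaling, Col13a1 was 0.39, Col6a2 0.66, Col4a1 0.35, Col4a2 0.43 and Col14a1 0.23. There Col13a1 was 0.10 without CON 2 and BGZ_L 3 and 0.21 with the covariate, and Col6a2 0.01 with the covariate and 0 with nuclear genes only. Col3a1 was -0.02 without scaling in KYDS+BGZ_L against KYDS, and in BGZ_L against CON -0.09 with nuclear genes only and -0.10 without CON 2 and BGZ_L 3. The interaction of Col8a1 was -0.33 without scaling, -0.60 without CON 2 and BGZ_L 3 and -0.10 with the covariate. The cause was not tested.

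Without 1 library, sign changes fell in these ranges. In KYDS against CON they were -0.54 to 0.15 for Col6a1, -0.02 to 0.35 for Col6a2, -0.33 to 0.21 for Col3a1, -0.25 to 0.27 for Col1a1 and -0.59 to 0.11 for Col4a1. In KYDS+BGZ_L against BGZ_L they were -0.26 to 0.08 for Col13a1, -0.21 to 0.08 for Col6a2, -0.18 to 0.29 for Col3a1 and -0.04 to 0.20 for Col5a1. In BGZ_L against CON, Col3a1 ran from -0.05 to 0.54, and the interaction of Col8a1 from -0.27 to 0.52.

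No pairing of the rats by replicate number was seen. Of 30 correlations between same-numbered libraries the range was -0.459 to 0.335 with 7 above 0.1. The best match had the same number for 2 of 20, and no rate for unpaired rats was computed. These values cannot exclude that rats shared litters or batches. With a replicate block the collagen calls stayed at 2 and 2, and the genes called were 557 and 1889 in KYDS against CON and KYDS+BGZ_L against BGZ_L.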

Other observations

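BGZ_L 1 differed from the other BGZ_L livers in more than 1 collagen. It had 43.1 scaled TPM of Col18a1 and 1.07 of Col27a1, against at most 9.57 and 0.104 in the other BGZ_L livers, and the highest Col5a1 of its group at 1.49. Its mitochondrial share of TPM was 39.6%, the lowest of the BGZ_L livers. Collagens held 0.00824% of its nuclear TPM, the lowest share of the 20 libraries, beside 0.00827% in CON 5 and 0.0466% in CON 3, the highest. Under the scaling used above, its summed collagen level was not low, at 93.9 scaled TPM beside a BGZ_L mean of 93.8.

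Col4a3 was 20.4 scaled TPM in BGZ_L 3 and 2.23 in BGZ_L 2, and at or below 1.17 in all other libraries. Col6a5 was 2.51 and Col8a2 1.64 in CON 2, the library with the highest mitochondrial share, 90.1%.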
